A study of Mus musculus with 12 samples.

Results

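The genes described here are those through which the kidney moves water and by which the collecting duct is told to do so. They are 6 aquaporins, the vasopressin V2 receptor and 3 transcription factors of the collecting duct, 10 genes in all of 55487 in the table. They are Aqp2, Aqp3 and Aqp4 of the principal cell, Avpr2, the factors Elf5, Tfcp2l1 and Gata3, and Aqp1, Aqp7 and Aqp11 of the proximal tubule. These genes were chosen by name, with their measured fisetin against control values already known, so the diet differences below are a description and carry no test. All 10 passed the filter on low counts, which 17890 genes passed.

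The kidneys came from male mice on the B6 background with X-linked Alport syndrome (XLAS), a hereditary disease of the type IV collagen of the glomerular filter, taken at 30 weeks of age. The fisetin group ate a diet with fisetin, a plant flavonol, at 500 ppm (6 libraries), and the control group ate the control diet (6 libraries). Both groups carry the disease allele, which the labels name only as Col4a5 with genotype HET, although a male has a single copy of this X-linked gene. No healthy kidney was analysed here, and each of 2 labelled batches held 3 libraries of each diet. Nothing in the labels ties each library to its own animal, so p-values measure the spread between libraries. Total counts were 16310214 to 24451821 with fisetin and 18638748 to 22396857 with control. Col4a5 itself was counted in every library, at 22.2 ± 2.49 CPM, counts scaled to a common library total, with fisetin and 23.3 ± 0.69 CPM with control (SD, n = 6 each). Libraries are numbered 1 to 6 within a diet in accession order, with 1 to 3 in batch 1 and 4 to 6 in batch 2.

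Vasopressin binds the V2 receptor on the basolateral side of principal cells and raises cyclic AMP. Protein kinase A then phosphorylates aquaporin-2, which moves to the apical membrane and lets water in from the urine, and longer stimulation also raises Aqp2 transcription. Water leaves the cell on the basolateral side through aquaporin-3 and aquaporin-4. Upstream, aquaporin-1 carries the bulk of water reabsorption in the proximal tubule and thin descending limb without vasopressin. Aquaporin-7 passes water and glycerol in the last proximal segment, and aquaporin-11 sits in internal membranes of proximal cells, where its loss in mice gives cystic kidneys.

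Promoter windows of 250 bases before to 50 bases from the start site were taken from RefSeq (GRCm38.p6) for 9 of the 10 genes, all but Aqp4, with 11 windows in all. The windows of 5 genes are shown. They are Aqp2, the main channel under vasopressin control, and the pairs Aqp3 with Avpr2 and Aqp1 with Aqp11, which passed a test of co-variation across libraries. Capitals mark matches, on either strand, to 3 motifs. These were TGACG, the core of the cyclic AMP response element, AGATAA, which GATA factors bind, and GGAAG, which is bound by ETS factors, the family of ELF5. Positions are counted from the start site. The windows are chrX:73891852-73892151 (+) for Avpr2, chr15:99578806-99579105 (+) for Aqp2, chr4:41098134-41098433 (-) for Aqp3, chr6:55336049-55336348 (+) for Aqp1 and chr7:97738198-97738497 (-) for Aqp11, each written 5′ to 3′ along its gene.
Avpr2: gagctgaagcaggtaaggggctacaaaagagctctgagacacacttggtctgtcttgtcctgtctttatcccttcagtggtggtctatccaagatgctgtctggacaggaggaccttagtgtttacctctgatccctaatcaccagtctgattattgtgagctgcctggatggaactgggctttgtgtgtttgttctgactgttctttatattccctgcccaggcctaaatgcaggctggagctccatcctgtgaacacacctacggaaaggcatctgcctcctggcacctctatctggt
Aqp2: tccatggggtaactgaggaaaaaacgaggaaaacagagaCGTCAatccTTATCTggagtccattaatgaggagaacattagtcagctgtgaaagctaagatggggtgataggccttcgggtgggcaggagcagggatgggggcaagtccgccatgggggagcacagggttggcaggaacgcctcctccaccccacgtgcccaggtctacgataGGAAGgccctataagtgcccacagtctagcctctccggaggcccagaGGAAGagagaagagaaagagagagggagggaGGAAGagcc
Aqp3: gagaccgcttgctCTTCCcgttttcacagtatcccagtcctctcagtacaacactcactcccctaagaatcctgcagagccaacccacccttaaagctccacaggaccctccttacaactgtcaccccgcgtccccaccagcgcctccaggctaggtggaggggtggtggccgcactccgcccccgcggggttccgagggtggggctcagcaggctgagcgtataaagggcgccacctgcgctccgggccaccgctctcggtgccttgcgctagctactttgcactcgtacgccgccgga
Aqp1: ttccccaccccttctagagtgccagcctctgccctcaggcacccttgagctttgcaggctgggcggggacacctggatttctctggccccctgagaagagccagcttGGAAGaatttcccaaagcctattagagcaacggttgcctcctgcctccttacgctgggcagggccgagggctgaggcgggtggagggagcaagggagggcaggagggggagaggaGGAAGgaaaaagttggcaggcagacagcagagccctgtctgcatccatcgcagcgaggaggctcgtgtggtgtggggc
Aqp11: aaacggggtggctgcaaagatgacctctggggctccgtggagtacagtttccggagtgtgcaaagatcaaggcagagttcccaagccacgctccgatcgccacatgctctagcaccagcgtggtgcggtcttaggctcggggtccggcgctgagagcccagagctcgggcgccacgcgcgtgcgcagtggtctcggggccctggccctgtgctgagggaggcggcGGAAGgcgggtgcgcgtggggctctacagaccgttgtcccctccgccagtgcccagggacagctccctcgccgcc

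The Aqp2 window held TGACG on the minus strand at -211 to -207, read CGTCA along the gene, and AGATAA on the minus strand at -202 to -197, read TTATCT. It also held GGAAG at -37 to -33, 10 to 14 and 41 to 45. Aqp3 had GGAAG on the minus strand at -237 to -233, Aqp1 had it at -143 to -139 and -28 to -24, and Aqp11 at -25 to -21. The Avpr2 and Gata3 windows matched no motif searched. Of the windows not shown, the Tfcp2l1 window held TGACG at -36 to -32 and GGAAG at -215 to -211. The first Elf5 window held GGAAG at -103 to -99, and the other Elf5 window held TGACG on the minus strand at -56 to -52. One Aqp7 window held AGATAA at -132 to -127 and TGGAAA, the core of the tonicity element, at -234 to -229. No window held the full element TGACGTCA, which contains TGACG, or AACCAG, part of the TFCP2L1 family motif. Among 32851 RefSeq promoter windows, 20.8% held TGACG, 11.2% AGATAA, 71.4% GGAAG, 21.4% TGGAAA, 1.79% TGACGTCA and 16.5% AACCAG on either strand. These letter matches describe the windows only.

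Per unit of transcript length, Aqp1 was the highest of the 10 genes at 185.6 ± 23.8 FPKM (SD, n = 12 libraries), followed by Aqp2 at 111.0 ± 36.3 FPKM. Aqp1 was above Aqp2 in 12 of 12 libraries and Aqp2 above Tfcp2l1 (69.7 ± 5.72 FPKM) in 10 of 12. Tfcp2l1 was the most abundant factor, above Aqp3 (48.1 ± 11.2 FPKM) in 12 of 12 libraries. A gap without overlap separated Aqp3 from the next gene, Aqp7 (11.3 ± 0.782 FPKM). Aqp7, Aqp11 (10.8 ± 3.0 FPKM) and Gata3 (9.94 ± 2.11 FPKM) did not differ beyond their spread, since Aqp7 was above Aqp11 in 7 of 12 libraries and Aqp11 above Gata3 in 6 of 12. Avpr2 (5.46 ± 1.55 FPKM), Aqp4 (4.04 ± 2.14 FPKM) and Elf5 (1.86 ± 0.876 FPKM) were lowest, and Elf5 rested on 19 to 64 counts in each library.

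The 3 principal cell water channels had lower means in the fisetin kidneys than in the control kidneys, from 72.5% of the control level for Aqp3 to 43.1% for Aqp4, with Avpr2 at 69% and Elf5 at 58.8%. Of the 3 proximal water channels, Aqp11 was at 80.8%, Aqp1 at 83.2% and Aqp7 at 108% of the control level. Tfcp2l1, at 104%, was the 1 of the 3 factors without a lower mean. Over the 10 genes, 8 had a negative log2 fold change, with a median of -0.39 against 0.0008 over all 17890 genes tested, of which 49.8% were negative. In RNA of kidney tissue, fewer cells of a type and less RNA per cell cannot be told apart.

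**Figure D1:**
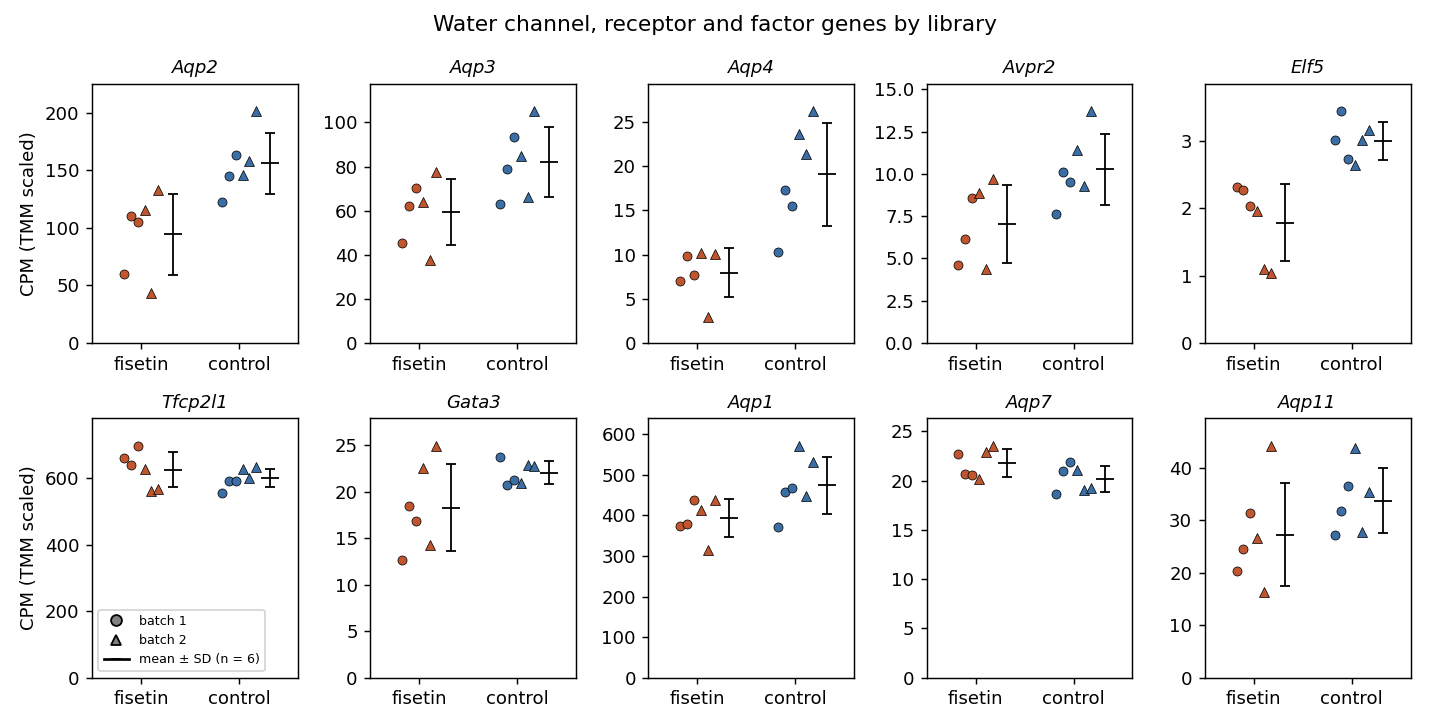
CPM (TMM scaled, vertical axis from 0) of the 10 genes in each library, fisetin on the left and control on the right of each panel, circles for batch 1 and triangles for batch 2, with mean ± SD of the 6 libraries. The fisetin and control libraries of Aqp4 and Elf5 did not overlap, and those of Tfcp2l1 and Aqp7 lay at about the same height.

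Avpr2, the vasopressin V2 receptor gene (ENSMUSG00000031390, chrX:73892102-73895502, + strand, GRCm38), had 4.36 to 9.70 CPM (median 7.34) in the fisetin libraries, against 7.60 to 13.7 CPM (median 9.83) in the control libraries. The groups overlapped, and 3 of 6 fisetin libraries lay below all control libraries. The log2 fold change was -0.54 ± 0.20 (SE). Of the 2886 exon bases of Avpr2, 2347 (81.3%) also lie in exons of Arhgap4 on the opposite strand, and the strand setting of the counting is not given in the sources used here. Avpr2 is therefore uncertain. Arhgap4, a GTPase-activating protein gene of blood cells among others, averaged 18.4 ± 5.31 CPM with fisetin and 14.7 ± 3.76 CPM with control (SD, n = 6 each), a difference in the other direction (log2 fold change 0.34 ± 0.21).

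Aqp2, the vasopressin-regulated apical channel (ENSMUSG00000023013, chr15:99579055-99584547, + strand), had 43.2 to 132.8 CPM (median 107.8) in the fisetin libraries and 122.1 to 201.2 CPM (median 151.7) in the control libraries. Of the 6 fisetin libraries, 5 lay below all control libraries, and fisetin library 6 overlapped with control library 1 only. The log2 fold change was -0.65 ± 0.24 in batch 1 and -0.79 ± 0.38 in batch 2. Fisetin libraries 5 and 1, at 43.2 and 59.4 CPM, were far below the other 4, which ran from 105 to 133 CPM.

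Aqp3, the basolateral water and glycerol channel (ENSMUSG00000028435, chr4:41092722-41098183, - strand), had 37.6 to 77.5 CPM (median 62.8) with fisetin, against 63.2 to 104.9 CPM (median 81.9) with control. The groups overlapped, with 3 fisetin libraries below all control libraries, and the batches gave -0.41 ± 0.20 and -0.51 ± 0.27 on the log2 scale. Aqp4, the other basolateral channel (ENSMUSG00000024411), had 2.96 to 10.2 CPM (median 8.72) with fisetin and 10.3 to 26.2 CPM (median 19.3) with control. Every fisetin library lay below every control library, although the highest fisetin value, 10.2 CPM, came close to the lowest control value, 10.3 CPM. Its log2 fold change was -0.82 ± 0.21 in batch 1 and -1.60 ± 0.41 in batch 2, where the control mean was 23.8 ± 2.40 CPM against 14.4 ± 3.61 CPM in batch 1 (SD, n = 3 each).

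Elf5, an ETS-family factor gene (ENSMUSG00000027186, chr2:103411688-103450989, + strand), had 1.04 to 2.31 CPM (median 2.00) in the fisetin libraries and 2.64 to 3.44 CPM (median 3.01) in the control libraries. The groups did not overlap, and the log2 fold change was -0.77 ± 0.18, from -0.47 ± 0.18 in batch 1 to -1.07 ± 0.29 in batch 2. The lowest Elf5 levels were 1.04 CPM in fisetin library 6 and 1.1 CPM in fisetin library 5, each from 19 counts. Library 6 had the highest Aqp2, Aqp3 and Avpr2 levels of its group, and library 5 had the lowest.

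Gata3, a zinc finger factor needed for the nephric duct in mice (ENSMUSG00000015619, chr2:9857078-9890034, - strand), had 12.7 to 24.9 CPM (median 17.6) with fisetin and 20.7 to 23.7 CPM (median 22.1) with control. The fisetin libraries spread on both sides of the narrow control range, 4 below it and 1 above it, and the log2 fold change was -0.28 ± 0.14, with -0.45 ± 0.14 in batch 1 and -0.10 ± 0.19 in batch 2. Tfcp2l1, a CP2-family factor needed for collecting duct cell types in mice (ENSMUSG00000026380, chr1:118627945-118685168, + strand), had 560.8 to 697.2 CPM (median 633.2) with fisetin and 557.3 to 634.2 CPM (median 597.1) with control. In batch 1 all 3 fisetin libraries were above all 3 control libraries, and in batch 2 all 3 were below the highest 2 control libraries, with 2 of them below all 3. Its log2 fold change was 0.06 ± 0.07 over both batches, 0.20 ± 0.08 in batch 1 and -0.08 ± 0.10 in batch 2.

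Aqp1 (ENSMUSG00000004655, chr6:55336432-55348555, + strand) had 315.2 to 437.8 CPM (median 397.3) in the fisetin libraries and 370.8 to 570.7 CPM (median 462.8) in the control libraries. The groups overlapped widely, with 1 fisetin library below all control libraries, and the log2 fold change was -0.27 ± 0.11, with -0.12 ± 0.12 in batch 1 and -0.40 ± 0.16 in batch 2. Aqp11 (ENSMUSG00000042797, chr7:97724006-97738289, - strand) had 16.4 to 44.1 CPM (median 25.7) with fisetin and 27.1 to 43.8 CPM (median 33.6) with control, and its highest value of all was in fisetin library 6. Its log2 fold change of -0.31 ± 0.21 was -0.18 without fisetin library 5 and -0.50 without fisetin library 6. Aqp7 (ENSMUSG00000028427, chr4:41033074-41048139, - strand) varied little, with 20.2 to 23.5 CPM (median 21.7) with fisetin and 18.6 to 21.9 CPM (median 20.1) with control. All 6 fisetin libraries were above the control mean of Aqp7, and its log2 fold change was 0.11 ± 0.06.

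**Figure D2:**
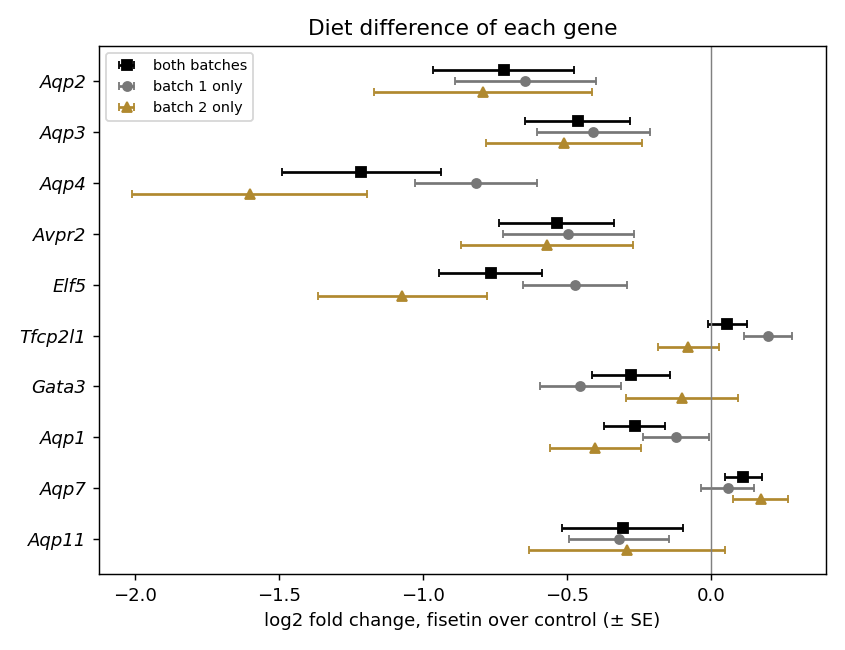
Fisetin over control log2 fold change (horizontal axis) of each gene with its SE, from all 12 libraries (squares), batch 1 alone (circles) and batch 2 alone (triangles). Of the 10 genes, 8 lie left of 0 in both batches and over all libraries, Aqp7 lies right of 0, and Tfcp2l1 changes side between batches.

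None of these fold changes was past an adjusted p of 0.05 by the quasi-likelihood test of edgeR (Benjamini-Hochberg), and the same test called 0.0% of all genes tested. By DESeq2, 2 of the 10 genes, Aqp4 and Elf5, were called lower with fisetin, against 0.358% of all genes. At an unadjusted edgeR p under 0.05, 6 of the 10 genes were lower and 0 higher, against 6.34% lower and 8.23% higher of all genes. All 6 fisetin libraries lay below all 6 control libraries for 2 of the 10 genes, Aqp4 and Elf5, and for 0.425% of all genes. Since the genes were chosen on this contrast, nothing is read from these shares.

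The comparison of principal cell with proximal channels put Aqp2, Aqp3 and Aqp4 against Aqp1, Aqp7 and Aqp11. The mean log2 CPM of the principal cell channels was 5.07 ± 0.55 with fisetin and 5.93 ± 0.30 with control (SD, n = 6 each). The mean of the proximal channels was 5.92 ± 0.22 with fisetin and 6.09 ± 0.18 with control. Their difference, principal minus proximal, was -0.85 ± 0.39 with fisetin, from -1.53 to -0.51, and -0.16 ± 0.21 with control, from -0.41 to 0.20. The 2 diets did not overlap in this difference, and the fisetin minus control gap was -0.50 in batch 1 and -0.88 in batch 2. Fisetin libraries 5 and 1 were the lowest. In the fit to all genes, the mean log2 fold change of the principal cell channels minus that of the proximal channels was -0.65, and -0.54 without fisetin library 5.

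**Figure D3:**
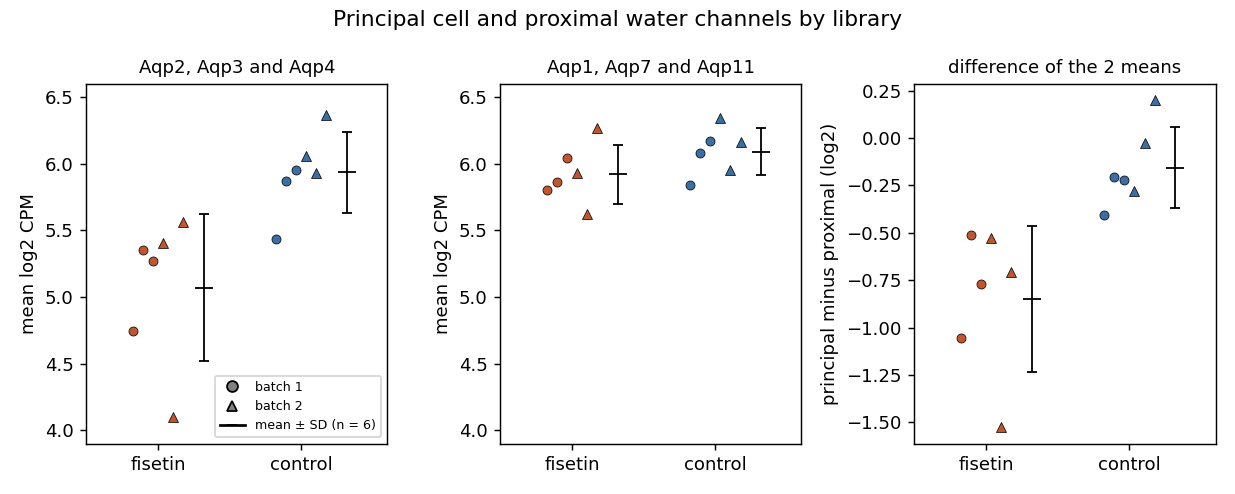
Mean log2 CPM (vertical axes) of Aqp2, Aqp3 and Aqp4, of Aqp1, Aqp7 and Aqp11, and the difference of these means, in each library, fisetin left of control, circles for batch 1, triangles for batch 2, mean ± SD of 6 libraries. The differences range from -1.53 to -0.51 with fisetin and from -0.41 to 0.20 with control.

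Within single libraries, Aqp2 counted 0.235 ± 0.070 times as many CPM as Aqp1 with fisetin and 0.330 ± 0.042 times with control (SD, n = 6 each). Aqp3 and Aqp7 lie close together on chromosome 4 on the same strand, 44582 bases apart with 1 annotated gene between them. The ratio of Aqp3 to Aqp7 in CPM was 2.75 ± 0.74 with fisetin and 4.06 ± 0.75 with control, lower with fisetin although the genes are near each other.

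As shares of all aquaporin FPKM in a library, Aqp1 made up 48.4 ± 4.77% with fisetin and 44.3 ± 2.53% with control (SD, n = 6 each). Aqp2 made up 23.1 ± 5.13% with fisetin and 30.3 ± 2.54% with control. Aqp3 made up 11.4 ± 0.742% with fisetin and 12.1 ± 1.13% with control, and Aqp4 0.636 ± 0.206% with fisetin and 1.26 ± 0.231% with control. The principal cell channel Aqp2 thus had the smaller share with fisetin. Aqp6, the channel of intercalated cell vesicles, was the other aquaporin above Aqp7 and made up 9.58 ± 0.948% with fisetin and 6.43 ± 0.408% with control. Aqp7 made up 3.4 ± 0.840% with fisetin and 2.43 ± 0.306% with control, and Aqp11 2.57 ± 0.538% with fisetin and 2.73 ± 0.405% with control. Shares sum to the whole in each library, so they are not independent of each other. Of the other 6 aquaporin genes of the table, 2 were tested, Aqp6 (log2 fold change 0.20 ± 0.13) and Aqp8 (0.49 ± 0.34), and both were positive without passing the threshold by edgeR. Mip was listed at 0 counts in every library and Aqp12 at 0 to 1 counts.

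Relations that the choice of genes did not use were tested next. None of the 10 genes passed the test between batch 2 and batch 1, the smallest unadjusted p being 0.0797 (edgeR quasi-likelihood test) for Elf5, with batch 2 lower by a log2 difference of -0.34 ± 0.18. Over all genes the batch term called 0.0% after adjustment and 3.38% at an unadjusted p under 0.05. The diet difference of Tfcp2l1 was lower in batch 2 than in batch 1 by a log2 interaction of -0.28, with an unadjusted p of 0.0301 and an adjusted p of 1.00 by edgeR, so it did not pass the correction. It was the 1 of the 10 genes with an unadjusted interaction p under 0.05, against 2.1% of all genes, and the interaction called 0.0% of all genes after adjustment. The larger batch 2 difference of Aqp4, by a log2 interaction of -0.79, and that of Elf5, by -0.60, did not pass either.

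Within diet and batch, 2 of 45 pairs of these genes varied together from library to library past the threshold, Aqp3 with Avpr2 and Aqp1 with Aqp11. The mean of each diet and batch was removed from log2 CPM, and Pearson's r and Spearman's rho over the 12 libraries were tested for all 45 pairs by exact permutation within diet and batch (1296 arrangements, two-sided, smallest possible p 0.0007716), with Benjamini-Hochberg adjustment over the pairs. Aqp3 and Avpr2 had an r of 0.95 (exact permutation p = 0.00154, adjusted 0.0347) and a rho of 0.87 (p = 0.00231, adjusted 0.0521). Without the 2 libraries farthest from the median of Aqp3, fisetin libraries 5 and 1, r was 0.89, and the uncertainty of the Avpr2 counts holds for this pair. Aqp1 and Aqp11 had an r of 0.90 and a rho of 0.94 (exact permutation p = 0.0007716 and adjusted 0.0347 for each, the smallest p the arrangements can give), and r was 0.86 without fisetin library 5 and control library 1. These 2 pairs passed by r, and Aqp1 with Aqp11 also by rho.

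Aqp2 had an r of 0.91 with Aqp3, 0.90 with Aqp4 and 0.91 with Avpr2, each just short of the threshold after adjustment (exact permutation, adjusted p = 0.0521, 0.0521 and 0.0540). The 6 pairs among Aqp2, Aqp3, Aqp4 and Avpr2 had r between 0.81 and 0.95, with a median of 0.90, and Aqp3 with Avpr2 was the 1 of them that passed. The median r of these 4 genes with the proximal channels Aqp1 and Aqp11 was 0.82 over 8 pairs, of which none passed after adjustment. Without fisetin library 5, an alternative added after the data were seen, these medians were 0.71 and 0.65. With the same 4 genes, the median r of Gata3 was 0.75 and that of Tfcp2l1 0.50, against 0.36 and 0.33 without fisetin library 5. The median r was 0.20 for Elf5 and -0.09 for Aqp7, against -0.18 and 0.15 without that library, and none of these pairs passed.

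**Figure D4:**
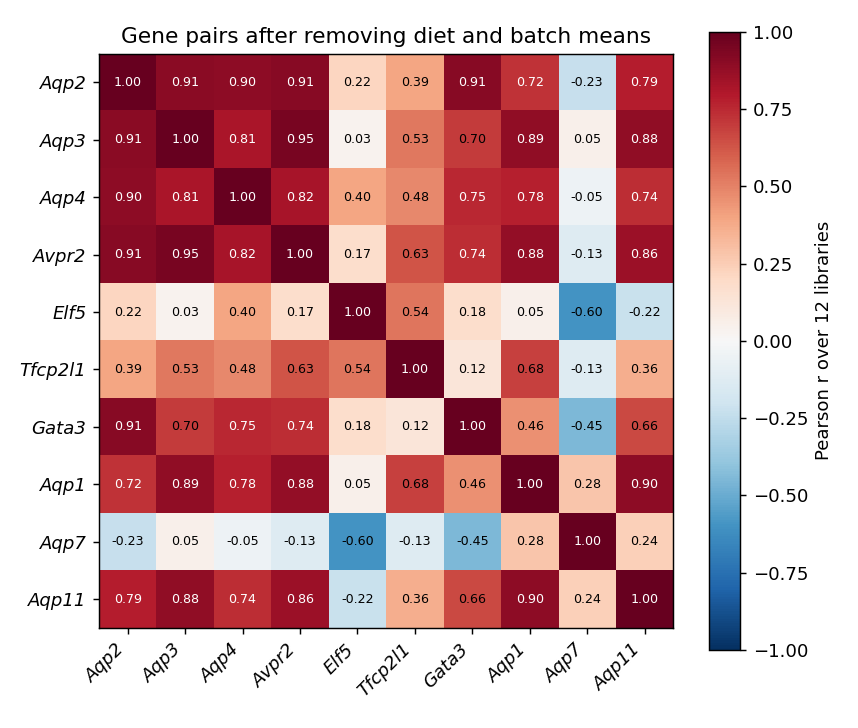
Pearson r (colour and printed value) of each pair of the 10 genes over 12 libraries after the mean of each diet and batch was removed. Values among Aqp2, Aqp3, Aqp4 and Avpr2 run from 0.81 to 0.95, and those of Elf5 and Aqp7 with these 4 genes from -0.23 to 0.40.

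Of 16510 genes whose mean log2 CPM was 0 or more, the 5 most like Aqp2 by this r were Ccdc157 (0.97), Wasf3 (0.96), Rprd1b (0.95), Fras1 (0.95) and Zfp35 (0.95). In that order Avpr2 stood 36th, Gata3 38th, Aqp3 43rd and Aqp4 65th. The 5 most like Elf5 were Chsy1 (0.94), Mrpl23-ps1 (0.93), Wnt7b (0.92), 5830462O15Rik (0.92) and Bet1l (0.92). The 5 most like Aqp1 were Pip4k2c (0.99), Inpp5j (0.99), Ppp1r1b (0.99), Ppp1r1a (0.99) and Caskin2 (0.98), and Aqp11 stood only 981st. Many genes thus followed Aqp1 more closely than Aqp11 did.

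Markers of other kidney cell types differed between the same libraries. The markers of kidney tubule were well counted, with Umod of the thick limb at 2104 ± 424 CPM with fisetin and 2539.5 ± 646 CPM with control (SD, n = 6 each). The 7 markers of proximal segments 1 and 2 were lower with fisetin in 7 of 7, with summed levels of 5045 to 12181 CPM against 7337 to 12709 CPM with control, and the 6 of segment 3 in 6 of 6. The median log2 fold change was -0.35 for segments 1 and 2 and -0.60 for segment 3, against -0.38 for the principal cell markers below. The 10 immune cell markers were higher in 10 of 10, with summed levels of 218.3 to 611.4 CPM with fisetin and 216 to 441.6 CPM with control. No marker of either list was at or under 3 counts throughout, and neither edgeR nor DESeq2 called any. At an unadjusted edgeR p under 0.05, 4 of 10 immune markers were higher, against 8.23% of all genes, and 1 marker in each proximal list was lower, against 6.34% of all genes. Fisetin library 5 had the lowest proximal segment 1 and 2 and principal cell sums and the highest immune sum, and fisetin library 6 the lowest immune sum of its group. Their part in the diet differences was not tested.

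The 7 principal cell markers outside the 10 genes, among them the sodium channel subunits, were lower in 6 of 7 with a median log2 fold change of -0.38. At an unadjusted edgeR p under 0.05, 5 of 7 were lower, against 6.34% of all genes, and neither edgeR nor DESeq2 called any. Their summed levels, 358.2 to 477 CPM with fisetin and 477.1 to 531.3 CPM with control, nearly touched. Examples were Fxyd4, a regulator of the sodium pump (-0.54 ± 0.15), Npnt, a basement membrane ligand of integrins (-0.28 ± 0.08), and Scnn1g, the gamma subunit of the sodium channel (-0.47 ± 0.14). Set against the mean of these 7 markers in the same library, Aqp4 was at -2.27 ± 0.50 on the log2 scale with fisetin and -1.30 ± 0.45 with control (SD, n = 6 each). Aqp2 was at 1.28 ± 0.47 with fisetin and 1.77 ± 0.21 with control, and Elf5 at -4.32 ± 0.39 with fisetin and -3.87 ± 0.15 with control. These 3 differences were -0.97, -0.49 and -0.46, with 3, 3 and 4 of the 6 fisetin libraries below all control libraries. The differences of Avpr2, -0.26, and Aqp3, -0.17, had 3 and 2 such libraries, and their SD with fisetin was 0.37 and 0.27. Gata3 differed by 0.01. The genes were chosen on the diet contrast, so these differences are a description. Tfcp2l1 was higher by 0.37, with 4.11 ± 0.17 with fisetin and 3.74 ± 0.05 with control. The log2 fold change of Tfcp2l1 alone was 0.06.

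The proximal channels were also set against proximal markers. Aqp11 kept almost exactly to the mean of the segment 1 and 2 markers, at -4.46 ± 0.04 with fisetin and -4.48 ± 0.07 with control on the log2 scale, so its lower mean was no lower than theirs. Aqp1 differed by 0.11, with -0.55 ± 0.31 with fisetin and -0.67 ± 0.12 with control. Aqp7, set against the markers of segment 3, the segment where its protein is found, was higher by 0.84, with -1.38 ± 0.84 with fisetin and -2.22 ± 0.55 with control. That difference was no larger than the SD with fisetin. The segment 3 markers themselves had a mean log2 CPM of 5.83 ± 0.83 with fisetin and 6.56 ± 0.59 with control. The log2 fold change of Aqp7 alone was 0.11.

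**Figure D5:**
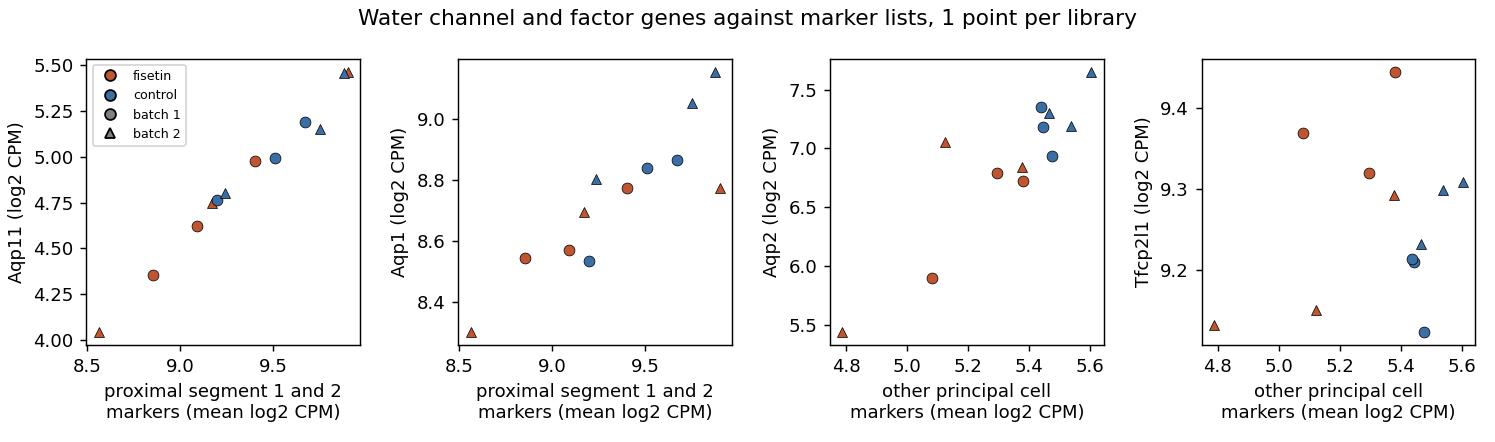
Log2 CPM (vertical axes) of Aqp11, Aqp1, Aqp2 and Tfcp2l1 against the mean log2 CPM of a marker list (horizontal axes), 1 point per library, coloured by diet, circles for batch 1 and triangles for batch 2. Aqp11 lies on a line with the proximal markers in both diets, and Tfcp2l1 forms no line with the other principal cell markers.

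After removal of diet and batch means, 60 relations between the 10 genes and 6 marker lists, chosen after the data were seen, were tested in the same way, and 12 passed by r and 8 by both r and rho. Aqp11 had an r of 0.99 with the segment 1 and 2 markers and of 0.99 with the intercalated cell markers (exact permutation, adjusted p = 0.00926 for each). Leaving out the 2 farthest libraries, r was 0.97 and 0.98. The 12 were Aqp1, Aqp3, Avpr2 and Aqp11, each with 3 lists. Aqp1, Aqp3 and Avpr2 passed by r with the intercalated cell list and both proximal lists, with r from 0.87 to 0.95. No gene passed with the other principal cell markers, the urothelium markers or the immune markers. The r of Aqp2 with the other principal cell markers was 0.83 (exact permutation p = 0.0849, adjusted 0.203), and that of Elf5 was 0.55.

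A list of vasopressin signalling genes, which also holds the related receptors Avpr1a, Avpr1b and Oxtr, showed no common direction in whole kidney RNA. Such RNA does not separate the levels of these genes in principal cells from those in other cells. The same limit holds for the trafficking genes below. Of 26 genes of vasopressin to cyclic AMP signalling, 25 were tested, 12 positive and 13 negative, with a median log2 fold change of -0.003. The edgeR test called 0 after adjustment and 3 at an unadjusted p under 0.05, 2 higher and 1 lower, against 8.23% higher and 6.34% lower of all genes. DESeq2 called 1 in each direction, against 0.503% higher and 0.358% lower of all genes. Creb1, a transcription factor activated through cyclic AMP, averaged 72.5 ± 3.81 CPM with fisetin and 63.5 ± 2.70 CPM with control (SD, n = 6 each; log2 fold change 0.19 ± 0.05, DESeq2 adjusted p = 0.0431). Avpr1a, the V1a receptor, which signals through calcium, averaged 9.46 ± 1.36 CPM with fisetin and 11.9 ± 0.350 CPM with control (-0.34 ± 0.09, DESeq2 adjusted p = 0.0431). Avpr1a, which does not lie between the V2 receptor and Aqp2, was the 1 lower gene in both counts. Grk2, a kinase that desensitises receptors, was at 0.23 ± 0.09.

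Of 24 genes of aquaporin-2 trafficking and turnover, 10 were positive and 14 negative with a median of -0.04, and 0 were called by edgeR or DESeq2, with 2 lower at an unadjusted p under 0.05, a share near the 6.34% of all genes. These were Mal, a membrane protein that binds aquaporin-2 (-0.22 ± 0.07), and Myo5b, a vesicle motor (-0.18 ± 0.08), and next came Vamp3, a vesicle fusion protein, at 0.11 ± 0.05. Of 16 further collecting duct and tubule transcription factors, 12 were negative and 4 positive with a median of -0.09, and neither tool called any. Pax2, a factor of duct and nephron development, was at -0.23 ± 0.09, Hoxb7, a duct marker, at -0.19 ± 0.08, and Emx1 at -0.42 ± 0.26.

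Other parts of the tubule gave the setting of these levels. Of 7 markers of the thin limb and inner medulla, 6 were negative with a median of -0.30. At an unadjusted edgeR p under 0.05, 2 of 7 were lower, against 6.34% of all genes. DESeq2 called 1 of 7 lower, against 0.358% of all genes. This was Slc14a2, the collecting duct urea transporter that vasopressin also controls. It was at 31.8 ± 5.40 CPM with fisetin and 44.1 ± 6.69 CPM with control (-0.46 ± 0.12, DESeq2 adjusted p = 0.0389, not called by edgeR). A link to vasopressin was not tested. Of 10 intercalated cell markers, 7 were negative with a median of -0.26, and of 7 thick limb and distal markers, 6 with a median of -0.24. Endothelial, stromal, urothelial and injured tubule lists had medians of -0.05, 0.004, -0.27 and -0.08, the adipocyte and red cell lists 0.57 and 0.26, and edgeR called 0 in each. Among these, the adipocyte, red cell, stromal and injured tubule lists changed sign between batches. In that order, their mean log2 CPM differed by -0.51, -0.26, -0.11 and 0.10 in batch 1. In batch 2 it differed by 0.59, 0.27, 0.08 and -0.08.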

How the data were processed

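Whole kidney messenger RNA was measured in 12 libraries. RNA samples whose integrity number exceeded 8 were used, with the KAPA mRNA HyperPrep kit, per the labels' protocols. Tools named in the submitters' processing notes are fastp, STAR, featureCounts and DESeq2, with the builds GRCm38 and mm10. Their versions and order, and the strand setting, were not given in the sources used here. Per the file headers, each library has a column of estimated counts, of TPM and of FPKM. The deposited estimated counts are unscaled. Since 13.9% of the values above 0 had decimals (tolerance 1e-06), they were rounded. The authors scaled FPKM for length and depth, and it is used here to compare genes. The authors' TPM values were not analysed here.

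The edgeR 4.0.16 package in R 4.3.3 was used on the counts (filterByExpr by diet, minimum count 10, TMM, robust glmQLFit with batch and diet, glmQLFTest, two-sided, Benjamini-Hochberg over 17890 genes, threshold 0.05). Interaction and batch were tested the same way, and SE is the fold change over the root of F. CPM are TMM scaled, and log2 CPM has a prior count of 2. DESeq2 1.42.0, limma 3.58.1 (voom with quality weights, and FPKM with pseudocounts of 1 and 0.1), other scalings, batches alone and libraries left out were alternatives. The steps were tested on simulated counts. No library looked like a copy in 66 pairs, which differed by 6.99 to 104.8 times counting noise over 16472 genes.

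Coordinates are from GENCODE M21, where 55227 identifiers were found, and promoters from RefSeq. A protein table was not used here. The genes, lists and tests were chosen with earlier results of these data known. In each list the 3 genes with the smallest p were eligible to be named, with every gene past the threshold. For the marker lists of other cell types, counts, medians or sums are given, with Umod and Slc14a2 as examples.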

Additional observations from a re-analysis of the deposited data

Results flagged for a closer look

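Of 20 groups of 6 libraries (10 genes in each diet), 1 held a library that stood apart, and chance alone gives about 1 in 20. In the fisetin group, Aqp4 in library 5 was the lowest of 6 in log2 CPM. Its gap to the next library was 0.696 of the range of the group, above the 95% critical value of Dixon's test for 6 values. That library had 2.96 CPM of Aqp4, and the other 5 fisetin libraries had 7.03 to 10.2 CPM. It also held the lowest Aqp2, Aqp3, Avpr2, Aqp1 and Aqp11 levels of the 12 libraries. Without it, the Aqp4 log2 fold change was -0.9995, against -1.21 with it.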

How the results depend on the processing

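No paired analysis was possible because the library numbers in the labels are shared by no 2 libraries. The number of genes called for diet depended on the tool, with 0 by edgeR, 154 by DESeq2 and 2492 by limma-voom with quality weights, and 1 in batch 1 alone. Leaving out 1 library gave 0 to 70 calls, with 70 without fisetin library 6 and 1 without fisetin library 4, and the cause was not tested. Of the 10 genes, limma-voom called 6, against 2492 of all 17890 genes tested. Nothing is read from this, since the genes were chosen on the diet contrast. DESeq2 called 1 gene for the interaction, against 0 by edgeR, and the batch term had 0 calls under every alternative run.

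Under 22 alternatives, 219 of 220 fold changes of the 10 genes had the sign reported. The exception was Tfcp2l1, at -0.0801 in batch 2 alone against 0.06 in all libraries. Elf5 was at -0.49 on log2(FPKM + 1), where low genes are compressed. The principal minus proximal difference ran from -0.79 to -0.49, and from -0.72 to -0.54 when 1 library was left out. Of 190 batch differences of the 10 genes, 0 passed. The median of all genes was at 0.0008 with TMM, -0.002 with RLE and 0.05 with total count scaling. Removing diet and batch means one after the other in place of each diet and batch mean moved the median r among Aqp2, Aqp3, Aqp4 and Avpr2 to 0.88.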
